A study of Mus musculus with 192 samples.

Results

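The Hox genes of the 4 mouse clusters were examined in a list of accessible chromatin windows from single cells. Members were the protein-coding genes of the GENCODE vM1 annotation of genome build mm9 whose symbols start with Hoxa, Hoxb, Hoxc or Hoxd, which gave 39 of 22208 protein-coding genes. A gene was counted as having a promoter window when at least 1 bp of a deposited window lay within 1 kb of any of its annotated transcript starts. Windows were also counted across each cluster with 50 kb on either side. The clusters and their flanks held 45 of the 50000 deposited windows.

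Hox genes encode homeodomain transcription factors that give cells their position along the head-to-tail axis of the embryo. Within a cluster they lie in the order in which they act along the body, from the anterior genes with low numbers to the posterior genes with high numbers, and genes with the same number in different clusters are paralogs. Polycomb complexes hold the clusters silent and Trithorax complexes keep them active, and blood and mammary cells are both known to use parts of the clusters. The Hox proteins bind DNA together with PBX, MEIS and PKNOX cofactors.

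The data came from Pi-ATAC, in which fixed cells are transposed in bulk by an enzyme that inserts adapters into open chromatin, stained for proteins and sorted singly into wells. The cells were a mixture, in equal numbers, of 4T1 cells, a cultured mouse breast cancer line identified by the epithelial protein EpCAM, and splenocytes from the spleen of 1 MMTV-PyMT mouse that had no tumor, identified by the leukocyte protein CD45. MMTV-PyMT mice carry a viral oncogene under a promoter active mainly in mammary epithelium. By sample title there were 96 cells in each group, and by source name 95 and 97, since 1 sample titled as a 4T1 cell carried the splenocyte source name. Each deposited window is 500 bp of mm9 centered on a peak summit, the point of highest signal, and the list gives no signal, count or q-value per window. Peak names point to a single call on all cells together, whereas the methods describe summit calls on pooled cells of 1 condition, and this conflict could not be settled. The list was taken here as 1 pool without replicates. On that reading a window can come from either cell type, no difference between 4T1 cells and splenocytes could be tested, and read depth was not analysed here. The labelled cell types were checked against their markers. All 6 epithelial markers (Epcam, Cdh1, Krt8, Krt18, Krt7 and Cldn4) and 4 of 8 leukocyte markers (Cd79a, Cd3e, Laptm5 and Coro1a) had a promoter window, whereas Ptprc, the gene of CD45, Cd79b and Cd52 were among those without one. The leukocyte share was near the 48.3% of all protein-coding genes with a promoter window. The median promoter CpG ratio of these 8 genes, a measure defined below, was 0.266. That lies in decile 3 of all protein-coding genes, where 17.9% had a promoter window. The epithelial median was 0.452, in decile 5, where 44.1% had one. With 8 genes and no test, the leukocyte markers do not establish a splenocyte contribution. For its aggregated splenocytes, the paper reports open chromatin specific to them at Cd45.

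The following stretches of mm9 show the windows that the account turns on, each read 5′ to 3′ on the strand of the Hox gene and kept clear of annotated untranslated regions. Capitals mark any of 10 short words that transcription factors bind, searched on both strands and spelled out with their counts. The stretch of Hoxa5 (chr6:52154587-52154830, minus strand) lies directly upstream of the start of transcription. That of Hoxd13 (chr2:74505940-74506239, plus strand) lies upstream of the start, and Hoxd13 was the posterior-most gene of any cluster with a promoter window. The next sequences come from Hoxa10: the stretch at chr6:52182515-52182814, minus strand, around a summit in the coding exon that holds the homeobox, and the stretch at chr6:52183097-52183396, minus strand, from the last window before a long run without any. The final stretch, at chr15:102817877-102818176, plus strand, is from a Hoxc window that lay upstream of Hoxc8 and outside every promoter.
Hoxa5: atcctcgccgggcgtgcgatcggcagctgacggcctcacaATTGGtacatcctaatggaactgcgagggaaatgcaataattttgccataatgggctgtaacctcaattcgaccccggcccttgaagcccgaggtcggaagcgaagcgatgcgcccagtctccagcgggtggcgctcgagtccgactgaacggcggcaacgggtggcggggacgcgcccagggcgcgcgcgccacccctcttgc
Hoxd13: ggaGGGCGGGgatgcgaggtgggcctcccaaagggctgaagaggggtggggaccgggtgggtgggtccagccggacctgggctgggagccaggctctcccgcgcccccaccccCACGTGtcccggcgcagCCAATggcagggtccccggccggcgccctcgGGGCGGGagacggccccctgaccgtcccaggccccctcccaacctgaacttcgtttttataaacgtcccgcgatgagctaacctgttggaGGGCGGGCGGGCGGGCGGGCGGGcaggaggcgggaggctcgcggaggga
Hoxa10 homeobox exon: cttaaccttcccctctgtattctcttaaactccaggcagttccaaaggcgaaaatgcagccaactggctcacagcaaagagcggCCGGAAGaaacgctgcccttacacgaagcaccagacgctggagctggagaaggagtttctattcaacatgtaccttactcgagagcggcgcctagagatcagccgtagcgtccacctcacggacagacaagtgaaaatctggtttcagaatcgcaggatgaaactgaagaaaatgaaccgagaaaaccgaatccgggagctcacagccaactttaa
Hoxa10 last window: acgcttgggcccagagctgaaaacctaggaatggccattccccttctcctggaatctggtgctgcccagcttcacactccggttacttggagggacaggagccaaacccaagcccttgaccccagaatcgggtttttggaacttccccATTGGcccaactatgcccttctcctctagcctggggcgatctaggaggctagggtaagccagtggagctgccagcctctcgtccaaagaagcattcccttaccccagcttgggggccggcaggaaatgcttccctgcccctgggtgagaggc
Hoxc8 upstream: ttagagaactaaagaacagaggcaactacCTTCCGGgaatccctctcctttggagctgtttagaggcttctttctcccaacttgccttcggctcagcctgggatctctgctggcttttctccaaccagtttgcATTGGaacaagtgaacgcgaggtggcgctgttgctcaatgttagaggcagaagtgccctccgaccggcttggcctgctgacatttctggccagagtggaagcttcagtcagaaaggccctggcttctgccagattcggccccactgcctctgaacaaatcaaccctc

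Of the 39 Hox genes, 13 (33.3%) had a promoter window, whereas 48.3% of all protein-coding genes did. The clusters differed. The Hoxa cluster on chromosome 6 had promoter windows at 9 of 11 genes (81.8%), with 44.5% of the protein-coding genes of that chromosome. The Hoxd cluster on chromosome 2 had them at 3 of 9 genes (33.3%), with 48.7% for the chromosome. In the Hoxb cluster on chromosome 11 only Hoxb3, 1 of 10 genes (10%), had a promoter window, with 48.7% for the chromosome, and none of the 9 genes of the Hoxc cluster on chromosome 15 did, with 48.1% for the chromosome. Neighboring Hox genes share windows and regulatory DNA, so genes of 1 cluster are not independent, and none of these shares was tested.

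**Figure D1:**
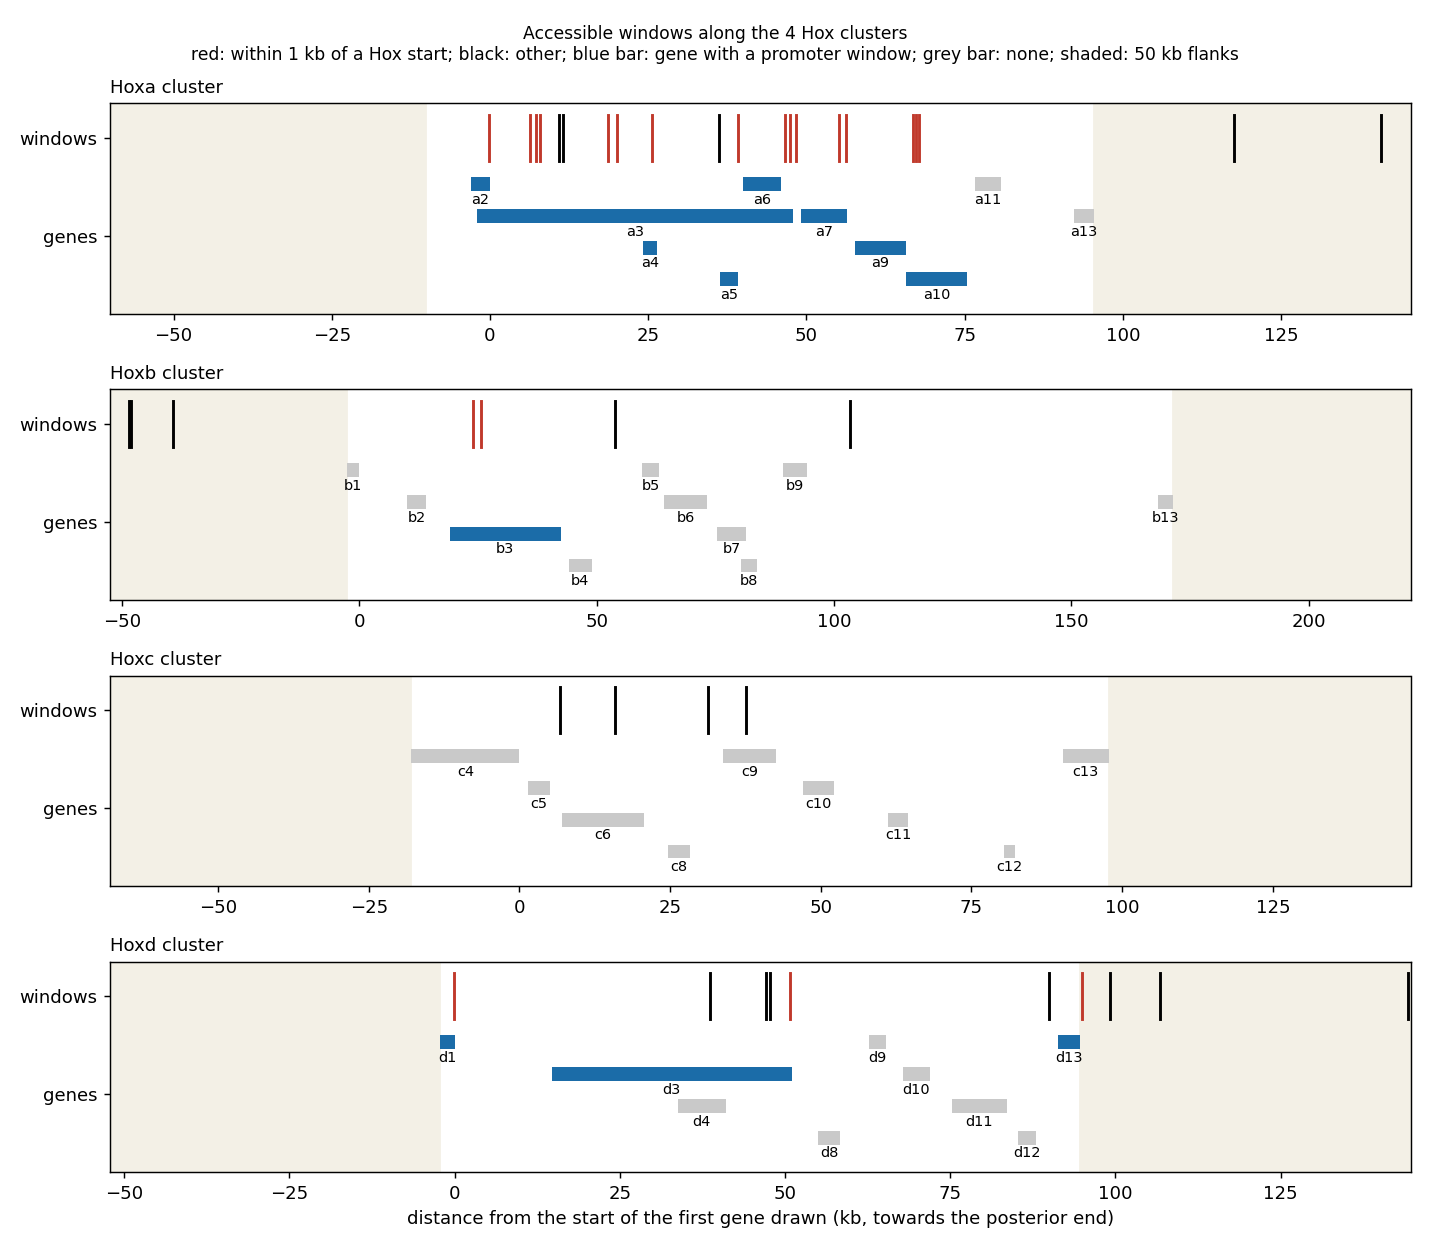
Maps of the Hoxa, Hoxb, Hoxc and Hoxd clusters with 50 kb on either side, drawn from the anterior to the posterior end against the distance in kb from the start of the first gene drawn. Vertical lines are deposited windows nearest to the genes drawn, red within 1 kb of a Hox start and black elsewhere, and bars are genes, blue with a promoter window and grey without. Red lines run along Hoxa from Hoxa2 to Hoxa10, whereas Hoxc has 4 black lines and no red one.

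Hoxa2 and Hoxa3, anterior genes that pattern the hindbrain and pharyngeal arches, had promoter windows. Hoxa2 had 1, with the summit 159 bp downstream. Hoxa3 had 8 promoter windows, a number reached or passed by 12 protein-coding genes (0.054%), and 9.42% of protein-coding genes had at least 3. Hoxa3 as counted here joins more than 1 gene identifier of the annotation under the same symbol, with 6 transcript starts. The 8 windows of Hoxa3 lay at several separate starts. Of these, 3 surrounded the start of a short coding transcript within the annotated gene, towards its 3′ end, with summits 958 bp downstream, 37 bp upstream and 707 bp upstream of it. Another lay 147 bp upstream of the start of Hoxa3-004, and another 584 bp upstream of that of Hoxa3-002. The remaining 3 lay at starts between Hoxa6 and Hoxa7, from which long Hoxa3 transcripts are annotated across Hoxa6, Hoxa5 and Hoxa4, and without transcripts that contain another Hox gene Hoxa3 had 5 windows. Only 2 of the 8 lay within 1 kb of the outermost start.

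The central Hoxa genes had promoter windows as well. Hoxa5, a gene expressed in mammary epithelium, had 1 window with its summit 5 bp downstream of the start, the closest of any Hox gene. Hoxa7 had 2, with the nearest summit 156 bp downstream of its outermost start, and Hoxa4 had 1, with the summit 650 bp downstream. The single window of Hoxa6 lay 669 bp upstream of the non-coding transcript Hoxa6-002, and it also counted for a long transcript of Hoxa3. From the starts of coding transcripts alone Hoxa6 had none.

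The posterior Hoxa genes with a promoter window were Hoxa9 and Hoxa10. Hoxa9, which is active in blood progenitors, had 1 window, whose summit lay 1095 bp upstream of the start so that only its edge reached the 1 kb region, and this window was shared with Hoxa10. Hoxa10 had 3 windows, at the start of its processed transcript Hoxa10-002, which lies downstream of its outermost start. It had 0 at its outermost start and 0 at the starts of its coding transcripts. Hoxa11 and Hoxa13, genes of the limb and the reproductive tract, had no promoter window, and the nearest summits were 12.5 kb and 22.1 kb away.

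In the Hoxd cluster, the promoter windows were at the end genes Hoxd1 and Hoxd13 and at Hoxd3, which lies between them. Hoxd1 had 1 window with the summit 142 bp downstream of its start, in the coding exon, and Hoxd3 had 1 with the summit 339 bp downstream. Hoxd13, the posterior-end gene that shapes the digits, had 1 window with the summit 278 bp upstream. Between Hoxd13 and Hoxd3, the genes Hoxd8, Hoxd9, Hoxd10, Hoxd11 and Hoxd12 had none, and Hoxd4 had none. The nearest summits of Hoxd4 and Hoxd12 lay 2.34 kb and 1.86 kb from a start, and each gene gained 1 window when the promoter distance was 2.5 kb.

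Hoxb3 had 2 promoter windows, with summits 824 bp downstream and 872 bp upstream of the start of the processed transcript Hoxb3-004. None remained at 500 bp, at the outermost start or at starts of coding transcripts. For the other Hoxb genes the nearest summit lay between 4.81 kb away, at Hoxb4, and 68.1 kb away, at Hoxb13. In the Hoxc cluster it lay between 1.62 kb away, at Hoxc5, and 60.2 kb away, at Hoxc13. At 2.5 kb Hoxc5 had 1 window and Hoxc6 had 2.

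Promoter windows were most frequent in the anterior paralog groups. In groups 1 to 3, 6 of 8 genes (75%) had a promoter window, in groups 4 to 8, 4 of 15 (26.7%), and in groups 9 to 13, 3 of 16 (18.8%). Group 3 was the only group in which every member, here Hoxa3, Hoxb3 and Hoxd3, had a promoter window. Groups 8, 11 and 12 had none, and group 13 had one only at Hoxd13. The order was not the same within every cluster: all 4 central genes of Hoxa had a window, and none of the 11 central genes of the other clusters did. The Hoxc cluster has no anterior gene, so part of the contrast between paralog groups is a contrast between clusters.

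**Figure D2:**
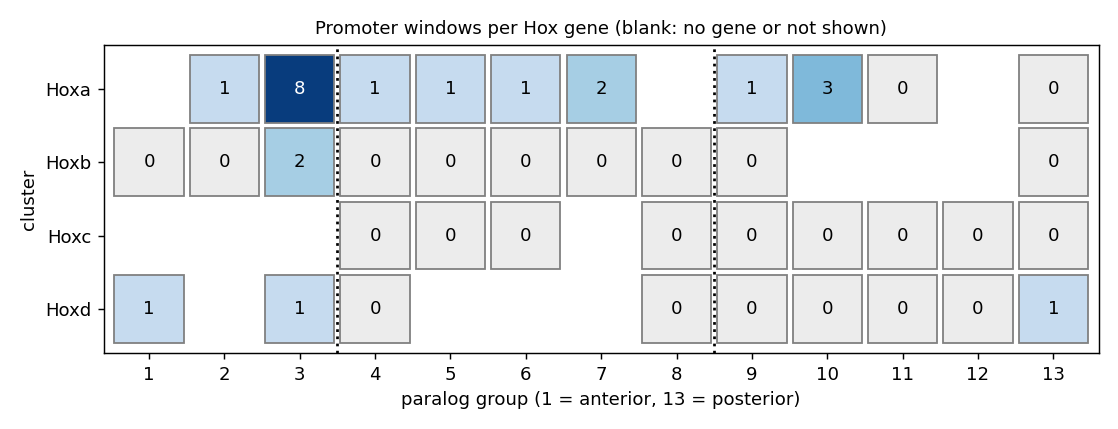
Number of windows within 1 kb of a transcript start for each Hox gene, with paralog group from anterior (1) to posterior (13) on the x axis and the cluster on the y axis. Blank positions have no gene or no value shown, dotted lines part groups 1 to 3, 4 to 8 and 9 to 13. Hoxa3 holds 8 windows, and the Hoxc row holds 0 throughout.

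These counts varied with the promoter definition. With a distance of 500 bp, 11 Hox genes had a window, against 46.5% of protein-coding genes. With 2.5 kb there were 17, against 51.4%. With the outermost start of each gene there were 11, against 45%, and with starts of coding transcripts only there were 10, against 47.4%.

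The density of windows also differed between clusters. The Hoxa cluster held 22 windows in a span of 105.5 kb, or 20.9 per 100 kb, and 1.96 per 100 kb lay in the genome as a whole. The Hoxd span had 6.20 per 100 kb, the Hoxc span 3.46 and the Hoxb span 2.30. With the flanks, Hoxa held 24 windows, Hoxd 10, Hoxb 7 and Hoxc 4. Of all stretches of the genome as long as Hoxa with its flanks, 0.943% held as many windows, and of those with at least 9 protein-coding gene starts, 10.7% did. For Hoxd these shares were 12.6% and 63.1%, for Hoxb 30% and 73.8%, and for Hoxc 38.5% and 79%. The density of Hoxa was thus in the upper tail of the genome but less unusual among gene-dense stretches, and the other 3 clusters were not above the middle of gene-dense stretches.

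Long stretches without a window overlapped each cluster, and several ran on beyond its ends. After the last Hoxa10 window, printed above, the next window was 49.2 kb further (chr6:52183496-52232674). Hoxa11, Hoxa13 and the outermost start of Hoxa10 lay in this stretch. In Hoxb, 48.9 kb without a window (chr11:96123997-96172938) held the starts of Hoxb5 to Hoxb9, 62.7 kb (chr11:96203333-96266058) held those of the anterior genes Hoxb1 and Hoxb2, and 186.1 kb (chr11:95937402-96123496) held Hoxb13. In Hoxc, 141.0 kb (chr15:102670576-102811527) held the starts of Hoxc9, Hoxc10, Hoxc11, Hoxc12 and Hoxc13, and 150.5 kb (chr15:102842876-102993391) held those of Hoxc4 and Hoxc5. In Hoxd, 38.7 kb (chr2:74511376-74550074) held Hoxd8 to Hoxd12. Peak calls carry consecutive numbers, and numbers missing from the list are calls not among the 50000 kept, whose positions are not given. In the Hoxa stretch 2 calls were missing, in those of Hoxb 4, 3 and 2, in those of Hoxc 1 and 2, and in that of Hoxd 1, so absence from the list is not absence of signal. From the first to the last listed call, 63.2% of the Hoxa, 42.9% of the Hoxb, 80% of the Hoxc and 52.6% of the Hoxd calls were kept, and 40.6%, 30.6%, 41.8% and 42.0% on their chromosomes. Hoxc had few calls of any kind, with 8 call numbers between the listed windows on either side of the region, 4 of them listed.

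The windows of the clusters came from simple calls. Of the 45, 43 were the only summit of their call, and none of the 23 at Hox promoters shared a call with another summit. Calls with several summits gave 18.2% of all windows and 33.2% of windows at protein-coding promoters, which made up 34.6% of the list. The summits at Hox promoters lay on both sides of the start, 12 upstream and 11 downstream, with a median distance of 339 bp and a range of 5 to 1095 bp.

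Of the 45 windows, 22 lay outside Hox promoters. Of these, 3 lay at promoters of other protein-coding genes, 2 of them at 5730596B20Rik inside the long Hoxa3 unit and 1 at Gm53 between Hoxb9 and Hoxb13. Another 3 lay only at promoters of long non-coding genes, and 16 lay at no promoter. The other protein-coding genes in the clusters or flanks, Ttll6, Gm17649, Evx2 and Gm14396, had no promoter window. A flank window nevertheless had its summit in a coding exon of Evx2, the homeobox gene beyond Hoxd13, 12.1 kb from the Hoxd13 start. Over all 45 windows, summits fell in introns of protein-coding genes in 18, in untranslated regions in 8, in coding exons in 3, in exons of non-coding transcripts in 2, in introns of non-coding transcripts in 4 and between genes in 10. In Hoxc, where no window was at a promoter, the summits lay 1.62 kb upstream of Hoxc5, 2.46 kb downstream of the start of transcript Hoxc6-003, 3.03 kb upstream of Hoxc8 and 4.32 kb downstream of the Hoxc9 start.

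Many long non-coding RNAs are transcribed within the clusters, several of them antisense to Hox genes. Of 17 long non-coding genes that start inside the spans, 7 (41.2%) had a promoter window, against 28% of all long non-coding genes. Among them were Gm15050 and 1700109F18Rik with 3 windows each, 2700086A05Rik with 2, and 5730446D14Rik, Gm11536 and 6720416L17Rik with 1 each. Hoxa11as, which runs opposite Hoxa11, and Hoxb3os, which runs opposite Hoxb2 and the 3′ end of Hoxb3, had none. Of the 23 Hox promoter windows, 9 were also at a long non-coding promoter, and a window cannot be assigned to one of a divergent or overlapping pair. The clusters hold 6 microRNA genes (Mir196b, Mir196a-1, Mir10a, Mir196a-2, Mir615 and Mir10b), several of which repress Hox transcripts. None had a window within 1 kb of its annotated start, against 9.79% of all microRNA genes, and 0 of 6 is near that share. The annotated genes are short, such as Mir10b at chr2:74564127-74564194, so these starts need not be those of the primary transcripts. Their nearest summits lay between 1.76 kb away, at Mir10b, and 8.01 kb away, at Mir196a-2.

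Promoter windows are more frequent at CpG-rich promoters, and the CpG ratio, the number of CpG dinucleotides over that expected from base composition, was computed in 1 kb centered on the outermost start. The median was 0.628 for Hox genes, with a range of 0.257 to 0.995, and 0.551 for all protein-coding genes. Hox genes with a promoter window had a median of 0.641, and those without 0.607. By cluster the median was 0.641 in Hoxa, 0.440 in Hoxb, 0.651 in Hoxc and 0.717 in Hoxd. The ratio describes the outermost start, whereas some windows, such as those of Hoxa10, lay at other starts. A relation between the CpG ratio and the differences between clusters was not tested. Over all protein-coding genes, 5.67% of the lowest decile of CpG ratio and 82.9% of the highest had a promoter window. Of protein-coding genes with a ratio in the range of the Hox genes, 62.5% had a promoter window. Within the middle range of Hox ratios, from the lower to the upper quartile, 63.2% of protein-coding genes and 7 of 19 Hox genes (36.8%) had one. Hoxa13 and Hoxc12 had ratios of 0.948 and 0.893 and no window, whereas Hoxa2 had 0.423 and a window.

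**Figure D3:**
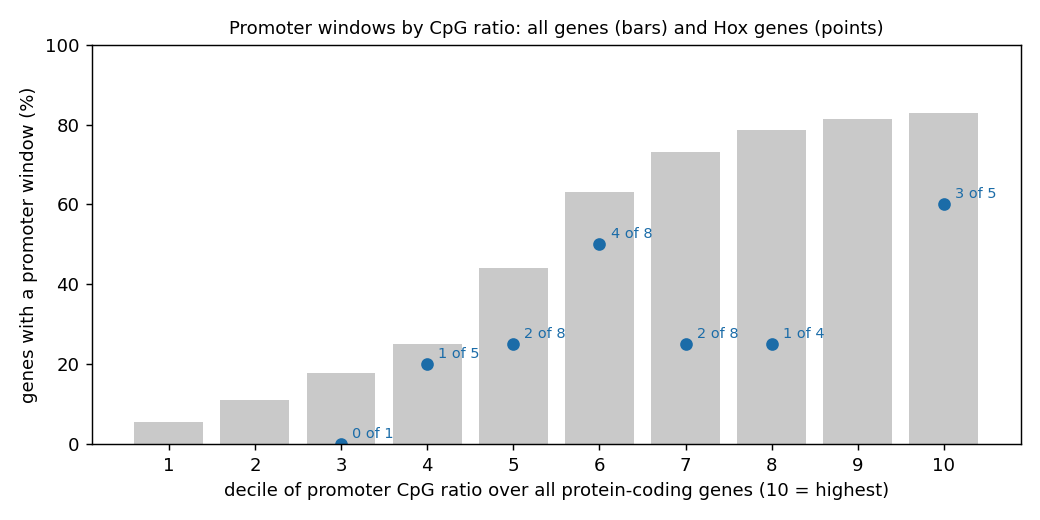
Share of genes with a promoter window, in percent, by decile of promoter CpG ratio, with all protein-coding genes as bars and Hox genes as points labelled with their counts. Points lie below the bar in every decile that holds a Hox gene, for example 2 of 8 Hox genes in decile 7, where 73.0% of all genes had a window.

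The 10 words, each searched on both strands and none containing another, were AP-1 (TGACTCA), PBX-HOX (TGATTNAT), HOX core (TAATTA), NFY (CCAAT), SP/KLF (GGGCGGG), ETS (CCGGAAG), CTCF core (CCACNAGG), YY1 (AAGATGGCG), CREB (TGACGTCA) and E-box (CACGTG). A match is a description of letters and not a binding site. The E-box word was in 12 of the 45 windows (26.7%) and in 10.1% of all windows, 6 of them in Hoxa, 4 in Hoxd, 1 in Hoxb and 1 in Hoxc. At Hox promoters it was in 7 of 23 windows (30.4%), against 12.8% of all protein-coding promoter windows. The SP/KLF word, common at CpG-rich promoters, was in 3 of the 23 (13.0%), against 45.8%. Outside Hox promoters it was in 4 of 22 (18.2%), against 8.10% of windows at no protein-coding promoter, and over all 45 it was in 7 (15.6%), against 21.1%. The CTCF core word, part of the site of the factor that bounds chromatin domains, was in 1 of 45 (2.22%), against 9.87%. NFY was in 22 (48.9%) against 46.2%, AP-1 in 6 (13.3%) against 19.8%, ETS in 6 (13.3%) against 8.56%, HOX core in 2 (4.44%) against 7.05% and YY1 in 1 (2.22%) against 1.37%. CREB was in 0, against 1.43%.

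E-box words outside untranslated regions in windows at Hox promoters are printed with the 15 bases on either side of each. They lie at Hoxa3 (chr6:52135600-52135635) and Hoxa4 (chr6:52141169-52141204) on the minus strand, and at Hoxd13 (chr2:74506038-74506073) and Hoxd1 (chr2:74601001-74601036) on the plus strand. The Hoxd1 stretch ends directly before the Hoxd1 start, and the Hoxa4 stretch lies downstream of the Hoxa4 starts.
Hoxa3 E-box: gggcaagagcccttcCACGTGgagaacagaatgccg
Hoxa4 E-box: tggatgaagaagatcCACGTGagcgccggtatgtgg
Hoxd13 E-box: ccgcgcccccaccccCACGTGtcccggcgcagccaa
Hoxd1 E-box: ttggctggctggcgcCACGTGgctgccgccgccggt

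The PBX-HOX word, the composite letters bound by HOX proteins with their PBX partners, was in 3 of the 45 windows (6.67%), against 5.60% of all windows. All 3 were in the Hoxa cluster, 2 at Hoxa3 promoters and the other 2.97 kb downstream of the Hoxa5 start. The 3 words of the Hoxa3 windows lie in introns at chr6:52134058-52134095, chr6:52133970-52134007 and chr6:52135352-52135389, all on the minus strand. The CTCF core word of Hoxb3, at chr11:96201576-96201613 on the plus strand, is printed with them as the only one found in the 45 windows.
Hoxa3 PBX-HOX near Hoxa3-004, farther from the start: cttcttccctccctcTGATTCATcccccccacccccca
Hoxa3 PBX-HOX near Hoxa3-004, nearer the start: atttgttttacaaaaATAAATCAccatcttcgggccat
Hoxa3 PBX-HOX near Hoxa3-002: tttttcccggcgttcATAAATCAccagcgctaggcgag
Hoxb3 CTCF core: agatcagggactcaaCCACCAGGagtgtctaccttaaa

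Genes that act with or upon the Hox clusters were described in the same way. All 9 cofactor genes had a promoter window, against 48.3% of all protein-coding genes. Pbx3 and Meis2 had 4 windows each, Pbx4, Pknox1 and Pknox2 had 2 each, and Pbx2, Meis1 and Meis3 had 1 each. Of 25 Polycomb and Trithorax regulators found in the annotation, 20 (80%) had one, among them the Polycomb genes Jarid2 with 3, Suz12, Eed and Bmi1 with 2 each and Ezh2 with 1, and the Trithorax gene Mll1 with 2. Ezh1, Ring1, Cbx2, Cbx7 and the demethylase gene Kdm6b had none. Kmt2a was matched by its older symbol Mll1. Mll2, on chromosome 15, is the gene now called Kmt2d, so Kmt2b was not analysed here. Of the 8 ParaHox and Evx genes (Cdx1, Cdx2, Cdx4, Gsx1, Gsx2, Pdx1, Evx1 and Evx2), the closest relatives of the Hox genes, 0 had a promoter window. Their median CpG ratio was 0.642, near that of the Hox genes. The median was 0.816 for the regulators, in decile 9 of all protein-coding genes, where 81.4% had a promoter window. For the cofactors it was 0.651, in decile 6, where 63.1% had one. The shares of these lists were not tested.

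**Figure D4:**
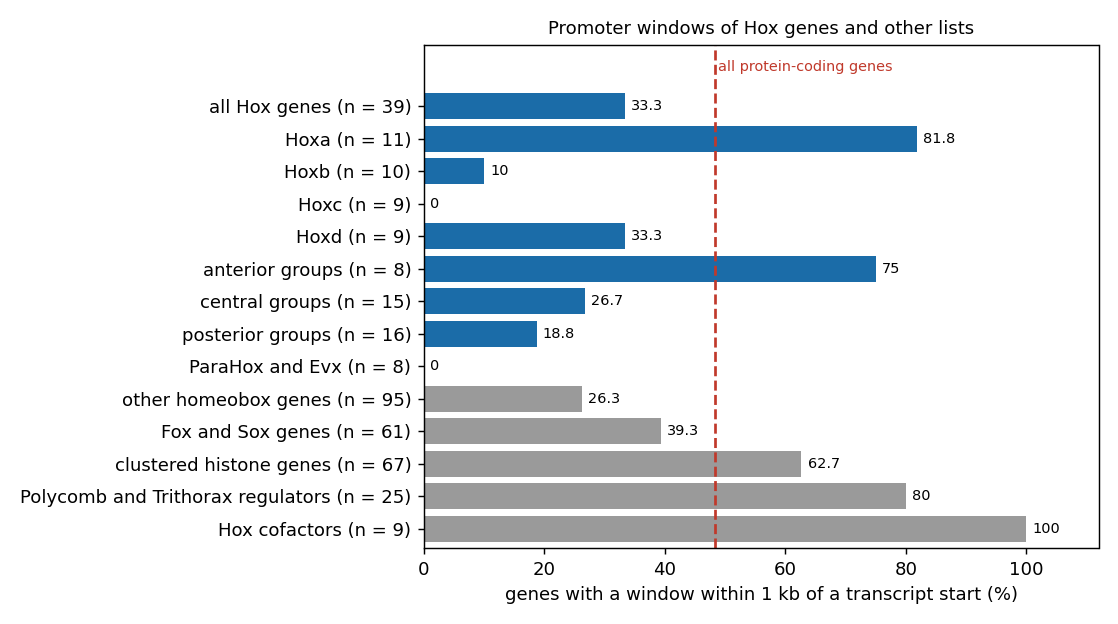
Percent of genes with a window within 1 kb of a transcript start, for Hox genes by cluster and by paralog position in blue and for other lists in grey, with the number of genes in brackets and a dashed line for all protein-coding genes (48.3%). Hoxa at 81.8% and the anterior groups at 75% lie above the line, and the other Hox bars lie below it.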

How the data were processed

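Per the labels and the paper's methods, the authors aligned adapter-trimmed reads to mm9 with Bowtie2 2.1.0, removed duplicates with Picard 1.79 and mitochondrial reads, called summits on aggregated cells of a condition with MACS2 (q 0.05, version not given in the sources used here), and kept the 50000 windows of 500 bp with the lowest q-values. The deposited values are window positions (start and end) without a score. The list gives no read depth, and depth was not analysed here.

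Here Python 3.11.15 and numpy 2.4.6 were used with GENCODE vM1 on mm9, whose chromosome lengths matched. Genes were units of chromosome and symbol. Stretches compared with a cluster held at most 10% unknown bases. The caller was tested on simulated windows. Members and lists were chosen with earlier results of these data known. Named were Hox genes, members of the cofactor, regulator, ParaHox, non-coding and marker lists, protein-coding neighbors, and at most 5 members of other lists with the most promoter windows, ties by name, and the values of 4 genes that this rule names are not reported here. With 1 pooled list no test was made.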

Additional observations from a re-analysis of the deposited data

How the results depend on the processing

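No paired analysis was possible because cells with the same number are not pairs and the list, read here as 1 pool, gives no values per cell. Of 100 alternatives, 78 left a count within 1.5 times its value, and 22 moved it. With windows of multi-summit calls only, 0 Hox genes had a promoter window, 0 each in Hoxa, Hoxb and Hoxd. Such calls gave 33.2% of windows at protein-coding promoters. The share of all protein-coding genes with such a window is not given, so this 0 has no gene background beside it. Hoxb had 0 also at 500 bp, at the outermost start and with coding transcripts only, so its single gene with a window rests on a processed transcript. At 2.5 kb, Hoxc had 2, Hoxd 5 and the central groups 7 genes with a window, and ParaHox and Evx had 1 (Cdx2). Without flanks Hoxb had 4 windows and Hoxd 6. In the central 200 bp of the 45 windows, E-box was found in 6 (13.3%, all windows 4.75%) and NFY in 10 (22.2%, all windows 22.8%). SP/KLF was in 4 (8.89%, all windows 12.2%), ETS in 3 (6.67%, all windows 4.40%) and AP-1 in 2 (4.44%, all windows 10.1%). PBX-HOX was in 2 (4.44%, all windows 1.99%) and HOX core in 1 (2.22%, all windows 2.20%). CTCF core, YY1 and CREB were in 0, with 4.58%, 0.576% and 0.768% of all windows. Fewer letters were searched there. Leaving out transcripts that contain another Hox gene, chosen after seeing the data, gave Hoxa3 5 windows and kept the count of Hox genes at 13. The median CpG ratio was 0.642 in 500 bp. Single cells could not be left out of the pooled list. What limits these results is that the list stops at a fixed number of windows and carries no depth or signal.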

Other observations

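Families of developmental and histone genes outside the Hox clusters were set beside the 48.3% of all protein-coding genes with a promoter window. Of 95 other homeobox, PAX and POU genes, a group chosen by symbol that includes the coactivator gene Pou2af1, 25 (26.3%) had a promoter window. Among the genes with several were Satb1, which encodes a chromatin organizer, with 5, Pou2f1, a ubiquitous octamer factor, with 4, and Irx2 and the lymphoid octamer factor Pou2f2 with 3 each. Of 61 Fox and Sox genes 24 (39.3%) had one, led by Sox9, a factor of mammary and other epithelial progenitors, with 5 windows and by Foxo3 with 4, then Foxa1, Foxn2 and Foxn3 with 3 each. Of 67 clustered histone genes 42 (62.7%) had one, led by Hist2h2ab and Hist2h2ac with 5 each and Hist1h2ai, Hist1h2bl and Hist2h2be with 4 each. Histone genes lie close together, so neighbors share windows. The median CpG ratio was 0.878 for the histone genes, in decile 9 of all protein-coding genes, where 81.4% had a promoter window. For the other homeobox group it was 0.688, in decile 7, where 73.0% had one. For the Fox and Sox genes it was 0.765, in decile 8, where 78.6% had one. The shares of these families were not tested against the Hox genes.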
